A study of Homo sapiens with 8 samples.

Results

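The Frizzled receptor family comprises the 10 genes FZD1 to FZD10, chosen here by name, among 57992 genes counted by RNAseq in RKO cells. RKO is a cell line from a human colon carcinoma in which beta-catenin signaling is intact. The 8 samples fall into 4 that received control siRNA and 4 that received siRNA against A20, the ubiquitin-editing enzyme encoded by TNFAIP3, with replicates numbered 1 to 4 in each group. All 8 samples were also stimulated with recombinant human wnt3a at 50 ng/mL for 24 hours. No unstimulated sample was analysed here, so the levels describe wnt3a-stimulated cells of a single line, and a response of the receptors to wnt3a itself was not measured. Of the 10 genes, 8 had enough counts to be tested between the siRNA groups, and FZD9 and FZD10 had 0 counts in all 8 samples.

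Frizzled proteins are seven-pass membrane receptors that bind wnt ligands through an extracellular cysteine-rich domain. With the co-receptors LRP5 and LRP6 they pass the signal to Dishevelled proteins, which leads to stabilization of beta-catenin, and with other partners they act in beta-catenin-independent signaling such as planar cell polarity. By sequence the family falls into the subfamilies FZD1, FZD2 and FZD7, FZD5 and FZD8, FZD3 and FZD6, and FZD4, FZD9 and FZD10. Frizzled levels at the cell surface are limited by the ubiquitin ligases RNF43 and ZNRF3, and in the intestine Frizzled signaling sustains the crypt stem cells.

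Total counts per sample ranged from 21226451 to 34194273, and the groups overlapped in depth. TNFAIP3, the targeted gene, was at 4.92, 5.83, 5.59 and 5.54 CPM (counts scaled to the library total, with TMM normalization) in control replicates 1 to 4 and at 3.47, 3.01, 3.40 and 3.43 CPM in A20 siRNA replicates 1 to 4. Every A20 siRNA sample was therefore below every control sample, and the log2 fold change of -0.71 had a standard error of 0.10 (adjusted p = 0.00258, edgeR's quasi-likelihood test). Of the colon epithelial markers EPCAM, KRT8, KRT18 and CDX2 were expressed, while KRT19, KRT20, CDH1 and CEACAM5 were at 0 counts and CDH17, VIL1 and LGALS4 had no more than 3 counts over all samples. The summed level of these 11 markers ranged from 140.4 to 151.7 CPM with control siRNA and from 138.1 to 146.3 CPM with A20 siRNA. Summed fibroblast, leukocyte and endothelial markers each stayed at or below 0.143 CPM in every sample. The level of a gene relative to the mean of all samples followed its exonic length differently from sample to sample. In control replicate 1 and A20 siRNA replicate 2 the trend had the opposite sign (Spearman's rho across genes 0.079 and -0.082) to that of the other replicates in the same group.

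Most Frizzled genes are compact, which bears on how their counts can be compared. FZD1, FZD2, FZD7, FZD8, FZD9 and FZD10 each have 1 exon in their canonical transcript, FZD4 and FZD5 have 2, FZD6 has 7 and FZD3 has 8. Merged exons ranged from 2343 bases for FZD9 to 13786 bases for FZD3, so levels of different members are compared here as CPM per kilobase of merged exons. The family is spread over the genome: on GRCh38, FZD5 lies on chromosome 2 from 207762598 to 207769906 and FZD7 on the same chromosome from 202033855 to 202038441. FZD1 (91264433 to 91271326) and FZD9 (73433778 to 73436120) lie on chromosome 7, and FZD3 and FZD6 lie on chromosome 8. FZD8 lies on chromosome 10 from 35638247 to 35642296, FZD4 on chromosome 11 from 86945679 to 86955395, FZD10 on chromosome 12 from 130162459 to 130165740, and FZD2 on chromosome 17 from 44557484 to 44561262.

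Stretches that a read could not assign to a single receptor were few. FZD1 and FZD2 shared 7 stretches of the 75-base read length, 0.103% of those in FZD1 and 0.189% of those in FZD2, and no other pair of members shared any. The overlap with other genes was largest for FZD4, where 1399 bases, 18.9% of its merged exons, overlap exons of PRSS23 on the opposite strand. FZD8 shares 318 bases with a long non-coding RNA on the opposite strand and 81 bases with a microRNA, and FZD6 shares 138 bases with BAALC-AS1. The strand setting of the counting is not given in the sources used here, so reads in these stretches may have been left out or could belong to the partner gene. PRSS23 itself was at 9.40 ± 0.358 CPM in controls and 9.20 ± 0.374 CPM under A20 siRNA (SD, n = 4 each).

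The sequence before the start of transcription was compared between expressed and undetected members, to show what a moderately expressed, a weakly expressed and an undetected receptor gene look like there. RefSeq promoter entries (GRCh38.p14) were matched by symbol for 5 of the 10 genes, FZD1, FZD4, FZD5, FZD8 and FZD9. The 250 bases before the start are printed 5′ to 3′ on the strand of the gene for FZD5 (chr2:207769907-207770156, minus strand), FZD8 (chr10:35642297-35642546, minus strand) and FZD9 (chr7:73433528-73433777, plus strand), with CpG dinucleotides in capitals.
FZD5: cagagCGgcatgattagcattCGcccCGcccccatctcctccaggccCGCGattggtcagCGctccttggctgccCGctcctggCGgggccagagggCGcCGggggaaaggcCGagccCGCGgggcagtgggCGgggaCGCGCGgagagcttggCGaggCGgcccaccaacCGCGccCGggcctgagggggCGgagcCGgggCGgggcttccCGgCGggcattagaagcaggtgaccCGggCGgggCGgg
FZD8: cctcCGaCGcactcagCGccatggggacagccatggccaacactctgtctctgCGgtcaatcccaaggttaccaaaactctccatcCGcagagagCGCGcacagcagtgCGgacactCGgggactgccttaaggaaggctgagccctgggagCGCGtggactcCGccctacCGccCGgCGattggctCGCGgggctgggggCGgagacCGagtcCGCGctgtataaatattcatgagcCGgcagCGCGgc
FZD9: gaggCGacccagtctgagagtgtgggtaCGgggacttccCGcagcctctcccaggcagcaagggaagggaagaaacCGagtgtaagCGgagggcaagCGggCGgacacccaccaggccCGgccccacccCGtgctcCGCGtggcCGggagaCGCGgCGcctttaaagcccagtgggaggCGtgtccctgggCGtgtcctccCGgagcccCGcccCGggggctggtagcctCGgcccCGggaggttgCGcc
These windows held 30 CpGs in FZD5, 24 in FZD8 and 23 in FZD9, and those of FZD1 and FZD4 held 19 and 33, against a median of 11 over 35116 RefSeq promoters of the same length. The undetected FZD9 thus had a CpG-rich start like FZD1, FZD4, FZD5 and FZD8, with more CpGs than 74.2% of all promoters. Relative to the number expected from base content, its CpGs were the lowest of the 5, at 0.705 against 0.742 to 0.904. The median over all promoters was 0.558. The expressed FZD2, FZD3, FZD6 and FZD7 had no entry and were not compared. The core letters bound by TCF and LEF factors, CTTTG followed by A or T and again by A or T, stood in none of the 5 windows on either strand, and 12.0% of all promoters held them.

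RKO cells expressed 8 Frizzled genes, and FZD6 dominated. FZD6, a receptor best known from planar cell polarity, had 30.6 ± 0.734 CPM per kilobase in controls and 30.9 ± 0.395 under A20 siRNA (SD, n = 4 each). It made up 62.5% ± 1.18 of the summed Frizzled level in controls and 62.1% ± 0.289 under A20 siRNA (SD, n = 4 each), and no less than 61.7% in any sample. Its mean level over the 8 samples lay above 88.9% of the tested genes. FZD5, a receptor for canonical wnt ligands that acts in the intestinal crypt, came next at 5.90 ± 0.227 CPM per kilobase over all samples (SD, n = 8), and FZD6 was 5.21 times as high on average, with no overlap over the 8 samples. These shares and folds depend on the annotated lengths. By CPM alone FZD3 came next, at 64.9 in controls against 124.4 for FZD6.

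**Figure D1:**
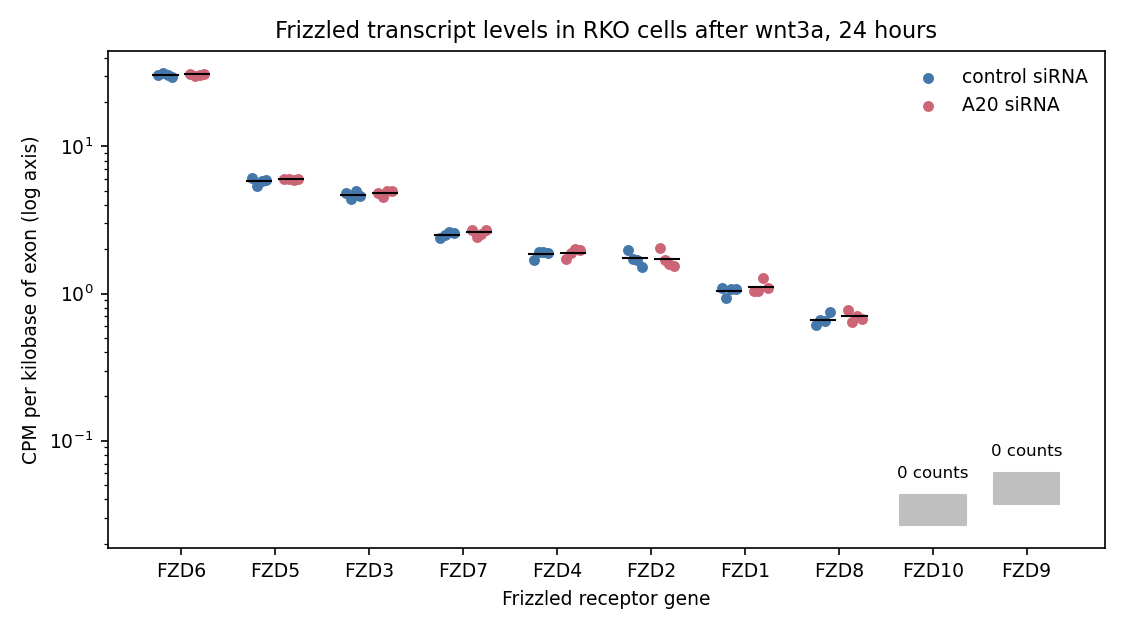
Level of each Frizzled gene in CPM per kilobase of merged exons on a log axis, with 1 point per sample (blue, control siRNA; red, A20 siRNA) and bars at the group means. FZD6 lies above all others in every sample, the siRNA groups overlap for each expressed gene, and grey boxes for FZD10 and FZD9 span the levels that 3 counts would give in the 8 samples.

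Below FZD5, the members formed a graded series. FZD3, the relative of FZD6 that guides axons and polarity, was at 4.76 ± 0.236 CPM per kilobase, and FZD7, a receptor linked to stem cells, at 2.56 ± 0.120 (SD, n = 8 each). FZD4, which binds Norrin as well as wnt ligands, was at 1.87 ± 0.115 and FZD2 at 1.73 ± 0.195 CPM per kilobase (SD, n = 8 each). FZD1 followed at 1.08 ± 0.0965 and FZD8, the relative of FZD5, at 0.684 ± 0.0578 CPM per kilobase (SD, n = 8 each). Neighbours in this order did not overlap over the 8 samples, with the exception of FZD4 and FZD2, where FZD4 was the higher of the pair in 6 of 8 samples. The same length divides every sample, so this overlap holds no error in the length. By CPM alone the order in controls was FZD6, FZD3, FZD5, FZD4, FZD7, FZD1, FZD2 and FZD8. The order given here thus rests on annotated lengths, and whether RKO transcripts have these lengths was not tested. With the same counts divided by only the exonic length of FZD4 that no other gene shares, a choice made after seeing the data, the value was 2.31 CPM per kilobase, still between FZD7 and FZD2. Reads inside the overlap with PRSS23 could not be taken out of the counts. The order was also the same with the longest or the canonical transcript as the length. Among the detected members these lengths differ from the merged exons only for FZD3 (13770 against 13786 bases) and FZD6 (3728 against 4065 bases). The change for FZD3 is too small to alter its place, and FZD6 lay far above the rest with either length. These lengths are therefore no check of the order between neighbours. By subfamily, FZD3 and FZD6 together took 72.1% ± 0.762 of the summed level with control siRNA, FZD5 and FZD8 13.3% ± 0.681, FZD1, FZD2 and FZD7 10.8% ± 0.222, and FZD4 alone 3.78% ± 0.241 (SD, n = 4 each).

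FZD9 and FZD10, the relatives of FZD4, were not detected. A count of 3 in a single library corresponds to between 0.0373 and 0.0602 CPM per kilobase for FZD9 and between 0.0267 and 0.043 for FZD10. Set against that floor in the same library, FZD6 was at least 518-fold higher than FZD9 and at least 725-fold higher than FZD10. Even FZD8, the lowest of the detected receptors, was at least 11.2-fold above the FZD9 floor and 15.7-fold above the FZD10 floor in every library. Floors and count intervals cover counting error only.

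The comparison of A20 siRNA with control siRNA asks whether the receptors at the head of the wnt pathway differ when A20 is reduced. None of the 8 tested Frizzled genes passed an adjusted p of 0.05 by edgeR's quasi-likelihood test, adjusted by the Benjamini-Hochberg method over the 13412 tested genes, of which 167 (1.25%) passed. None had an unadjusted p under 0.05, against 16.2% of all tested genes, and DESeq2 and limma-voom likewise gave 0 Frizzled genes at either threshold. DESeq2 gave no adjusted p for FZD2 and FZD8. The control and A20 siRNA ranges overlapped for all 8, and 7.61% of all tested genes had ranges that did not overlap. With only 8 genes, a count of 0 can arise at shares like these and does not set the family apart. Neither the labels nor the methods say whether replicates were separate experiments or parallel cultures, so the p-values measure the spread between these samples, which may be technical. In bulk RNA a change in the share of cells and a change in RNA per cell cannot be told apart.

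Among the abundant receptors the estimates were close to 0 with narrow intervals. FZD6 was at 125.3, 127.6, 124.1 and 120.5 CPM in control replicates 1 to 4 and at 126.7, 123.3, 125.0 and 126.7 CPM in A20 siRNA replicates 1 to 4. The lowest and the highest sample were both controls, and the log2 fold change was 0.01 (95% interval -0.04 to 0.06, adjusted p = 0.863, edgeR). FZD3 was at 66.8, 60.2, 68.6 and 64.0 CPM with control siRNA and at 66.1, 62.1, 68.2 and 69.1 CPM with A20 siRNA. Replicate 2 was the lowest of each group, and the log2 fold change was 0.03 (95% interval -0.05 to 0.11, adjusted p = 0.774, edgeR).

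FZD5 was at 43.2, 37.8, 41.2 and 41.7 CPM with control siRNA and at 42.1, 42.1, 41.6 and 42.3 CPM with A20 siRNA. The A20 siRNA samples lay within the wider control range, whose low end was control replicate 2, and the log2 fold change was 0.03 (95% interval -0.04 to 0.11, adjusted p = 0.707, edgeR). Its close relative FZD8 rested on 58 to 108 reads per sample. FZD8 was at 2.46, 2.66, 2.62 and 3.04 CPM with control siRNA and at 3.15, 2.61, 2.87 and 2.73 CPM with A20 siRNA. The groups overlapped over most of their range and the interval was the widest of the family (log2 fold change 0.09, 95% interval -0.15 to 0.34, adjusted p = 0.757, edgeR). Differences inside this interval are compatible with these samples.

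**Figure D2:**
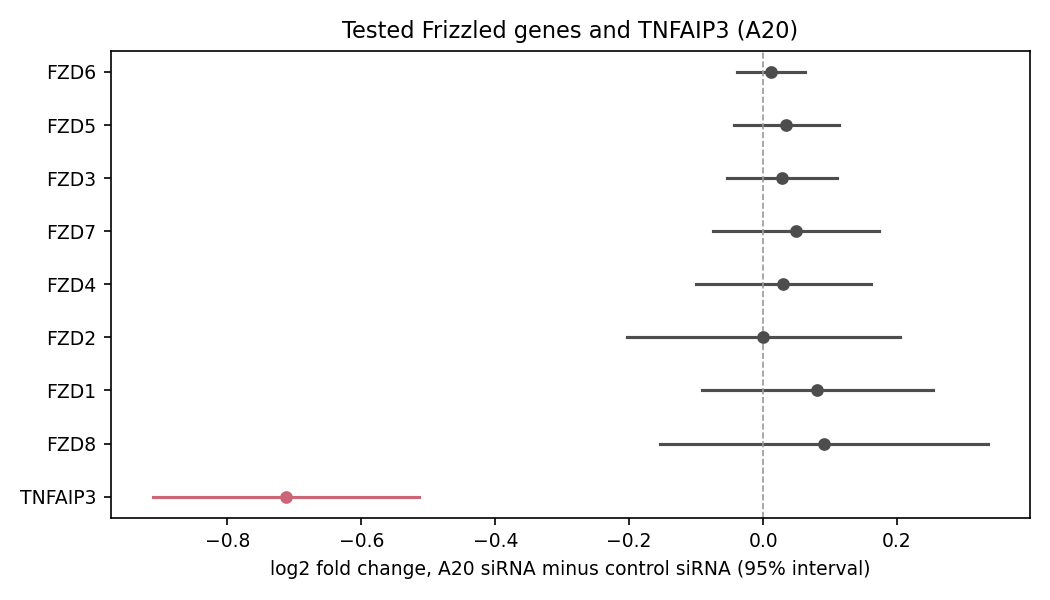
Log2 fold change of A20 siRNA minus control siRNA (horizontal axis) with its 95% interval from edgeR's quasi-likelihood fit, for the 8 tested Frizzled genes in order of level and for TNFAIP3. The 8 receptor intervals include 0 and lie between -0.20 and 0.34, while that of TNFAIP3 runs from -0.91 to -0.51.

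In the subfamily that carries much of canonical signaling in other tissues, FZD7 was at 11.0, 11.4, 12.0 and 11.8 CPM with control siRNA and at 12.4, 11.2, 11.7 and 12.5 CPM with A20 siRNA. The highest samples were A20 siRNA replicates 4 and 1, but replicate 2 of the same group was below 3 of the controls, and the log2 fold change was 0.05 (95% interval -0.07 to 0.17, adjusted p = 0.737, edgeR). FZD1 was at 7.55, 6.46, 7.45 and 7.36 CPM with control siRNA and at 7.23, 7.13, 8.85 and 7.48 CPM with A20 siRNA. It had the smallest p of the family, yet only A20 siRNA replicate 3 stood above all controls (log2 fold change 0.08, 95% interval -0.09 to 0.25, adjusted p = 0.687, edgeR).

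For FZD2 and FZD4, as for the other members, the difference between the siRNA group means was smaller than the spread within groups. FZD2 was at 7.52, 6.54, 6.40 and 5.75 CPM with control siRNA and at 7.73, 6.41, 6.02 and 5.83 CPM with A20 siRNA. In each group replicate 1 was the highest and replicate 4 the lowest, and FZD2 had the largest spread within groups of the family (coefficient of variation 12.2%, against 1.92% for FZD6). The log2 fold change was 0.0003 (95% interval -0.20 to 0.20, adjusted p = 1.00, edgeR), and its sign turned in 9 of 17 alternatives. FZD4 was at 12.5, 14.1, 14.2 and 13.9 CPM with control siRNA and at 12.6, 14.0, 14.7 and 14.7 CPM with A20 siRNA. Here replicate 1 was the lowest of each group, and the log2 fold change was 0.03 (95% interval -0.10 to 0.16, adjusted p = 0.860, edgeR).

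Replicate 1 was also the deepest library of each group, with 30022486 and 34194273 counts. Across the 8 samples, FZD2 was higher with a higher total count (Pearson's r = 0.93, exact permutation p = 0.000521; Spearman's rho = 0.90, exact permutation p = 0.00456), and r was 0.91 without the deepest and the shallowest library. For FZD4 the relation ran the other way (r = -0.88, exact permutation p = 0.00479; rho = -0.67, exact permutation p = 0.0831), with r = -0.80 without the same libraries. These relations were looked for after the values had been seen, for all 8 tested members. In the other 6 members r lay between -0.20 and 0.23 over the 8 samples. With the same libraries left out, r went from 0.17 to -0.89 for FZD8 and from -0.15 to -0.77 for FZD7, so 6 samples give an unstable value. Adjusted over all 13412 tested genes, neither passed (adjusted p = 0.894 for each, exact permutation test), nor did any other gene. As large a correlation in either direction was found in 0.0671% of tested genes for FZD2 and in 0.432% for FZD4. CPM values share the total count as their divisor, and whether depth or another difference between these libraries moves with the receptor levels was not tested.

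**Figure D3:**
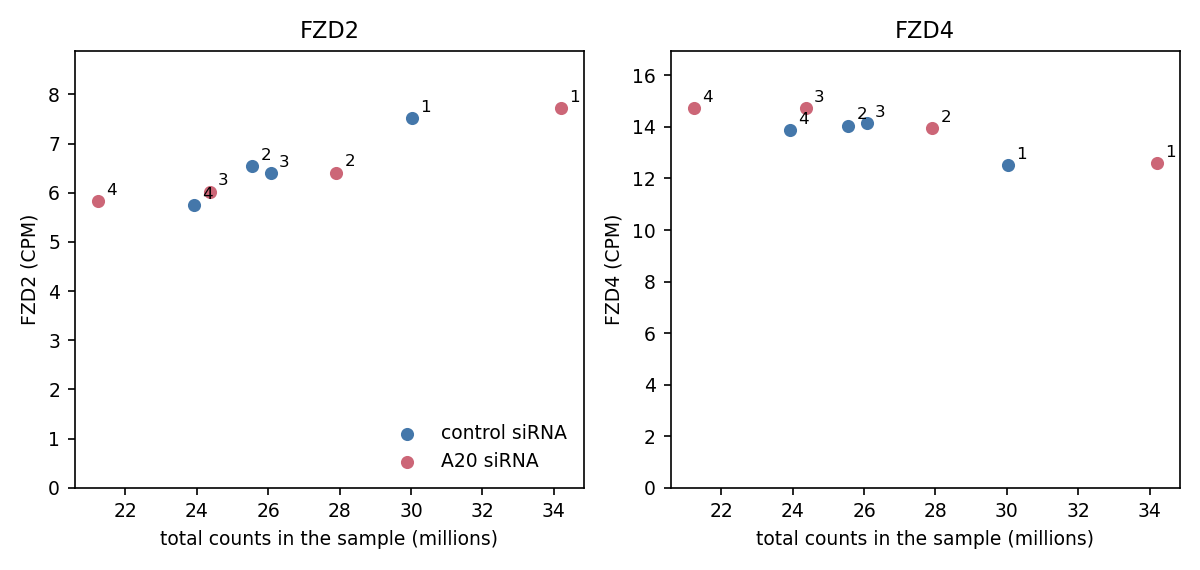
FZD2 (left) and FZD4 (right) in CPM on the vertical axis against the total count of the sample (horizontal axis), with 1 point per sample labelled by replicate number (blue, control siRNA; red, A20 siRNA). FZD2 is highest and FZD4 lowest in both replicate 1 samples, the deepest of their groups.

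As a group, the 8 tested receptors had a median log2 fold change of 0.03, against 0.0027 over all tested genes. All 8 estimates were above 0, where 51.6% of all tested genes were, and the largest was 0.09. That of FZD2 was 0.0003, and its group means ran the other way, at 6.55 CPM in controls and 6.50 under A20 siRNA. Without control replicate 2, the estimates of FZD2, FZD3 and FZD5 were below 0 and those of the other 5 of 8 above it. The summed Frizzled level was 48.9 ± 0.698 CPM per kilobase in controls and 49.7 ± 0.796 under A20 siRNA (SD, n = 4 each), and the ranges, 48.0 to 49.6 and 48.5 to 50.2, overlapped.

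By profile over the 8 samples, the tested genes most like FZD6 were MLLT11, TRNT1 and TBK1, with Pearson's r of log2 CPM of 0.95, 0.94 and 0.93. Those most like FZD1, the member with the smallest p, were DEDD, ENSG00000240527 and TRAK1, with r of 0.94, 0.94 and 0.94. An r above 0.8 was reached by 119 tested genes (0.887%) for FZD6 and by 107 (0.798%) for FZD1. The values compared come from the same 8 libraries and so share their depth and siRNA group. With 8 samples and so many tested genes, r this high also arises between unrelated genes. These genes are therefore a description, and a link with the receptors was not tested.

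The other genes that act with Frizzled receptors were taken from 8 lists with 83 members, of which 32 were tested. None of the 32 passed the adjusted threshold in edgeR's quasi-likelihood test, which 1.25% of all tested genes passed. An unadjusted p under 0.05 was found for 4 of them (12.5%), a smaller share than the 16.2% of all tested genes. DESeq2 gave 0 and 2, with an adjusted p for only 24 of the 32, and limma-voom 0 and 4. The ranges of the siRNA groups did not overlap for 4 of the 32 (12.5%), against 7.61% of all tested genes.

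Among co-receptors and alternative wnt receptors, 6 of 11 were tested and 0 passed. LRP5, the co-receptor of canonical signaling, was at 12.7 CPM per kilobase and LRP6, with the same role, at 0.932, so LRP5 lay below FZD6 but above all other Frizzled members while LRP6 lay between FZD1 and FZD8. The kinase-like wnt receptor RYK, the pseudokinase PTK7 and the glypican GPC4 were at 12.3, 12.6 and 7.57 CPM per kilobase, whereas ROR2 and RECK had 0 counts. LRP5 was at 79.9 ± 1.88 CPM in controls and 76.7 ± 1.17 under A20 siRNA (SD, n = 4 each). Its ranges did not overlap, but the log2 fold change of -0.06 did not pass (95% interval -0.11 to -0.0022, adjusted p = 0.291, edgeR). The log2 fold changes of RYK, PTK7 and GPC4 were 0.04, -0.01 and -0.0088.

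For receptor turnover, 2 of 9 genes were tested. ZNRF3, which removes Frizzled from the membrane, was at 3.13 CPM per kilobase, and LGR4, an R-spondin receptor that counters it, at 2.04. Its partner ligase RNF43 had 4 counts in all 8 samples together, LGR5, LGR6, RSPO1, RSPO2 and RSPO3 had 0, and RSPO4 never exceeded 1 count in a sample. The log2 fold changes were 0.02 for ZNRF3 (95% interval -0.07 to 0.11) and 0.05 for LGR4 (95% interval -0.07 to 0.17), and neither passed (adjusted p = 0.831 and 0.704, edgeR).

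Transcripts of the receptors' ligands were scarce. Of 20 ligand genes, the 19 wnt genes and the Norrin gene NDP, 9 had 0 counts, WNT3A among them, and 3 were tested: WNT10A at 0.609, WNT11 at 0.326 and WNT2B at 0.265 CPM per kilobase. Their log2 fold changes were -0.04, -0.07 and -0.0011, and none passed. The carrier WLS, needed to secrete wnt ligands, was at 24.5 CPM per kilobase, and PORCN, which acylates them, at 1.36 (log2 fold changes -0.04 and 0.03, neither passing). Of 12 secreted antagonists 8 had 0 counts, including the Frizzled-related genes SFRP1, SFRP2, FRZB and SFRP4, and none was tested.

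**Figure D4:**
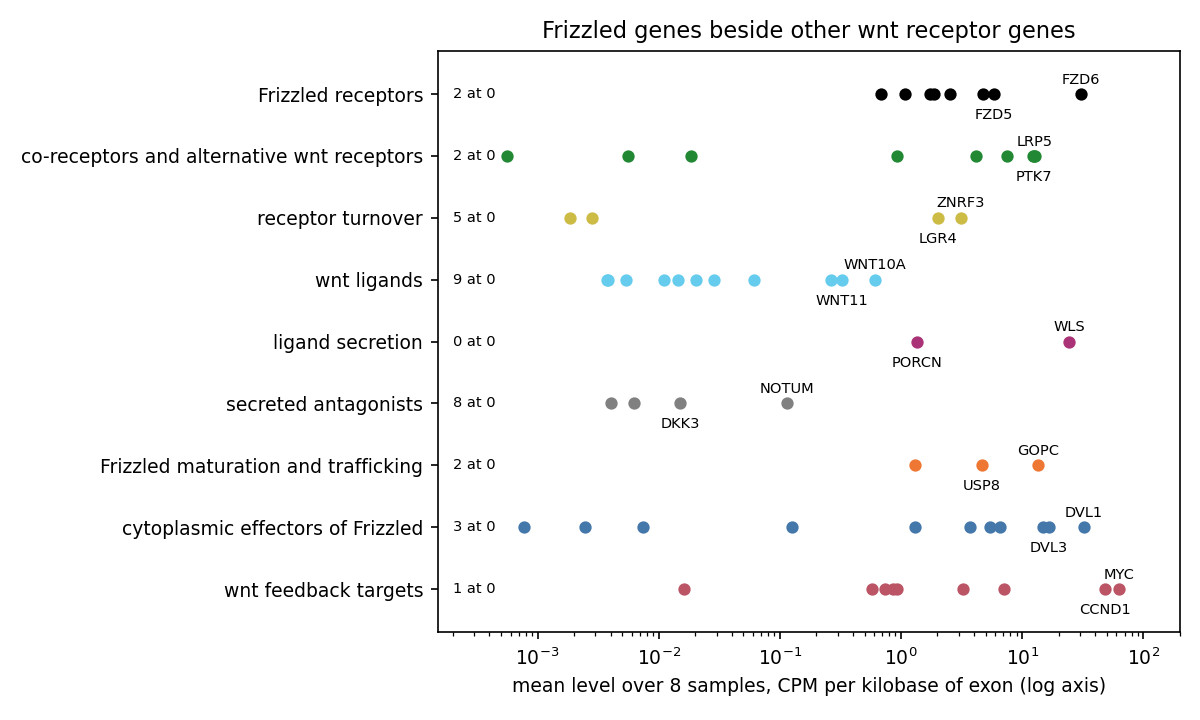
Mean level over the 8 samples in CPM per kilobase of merged exons (log axis) for the Frizzled genes and the 8 lists of genes that act with them, 1 point per gene, with the highest genes of each row named. The number of genes with 0 counts stands at the left, 2 of 10 for Frizzled receptors, 9 of 20 for wnt ligands and 8 of 12 for secreted antagonists.

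Genes for Frizzled maturation and trafficking included GOPC, a Golgi protein that binds Frizzled tails, at 13.5 CPM per kilobase, the deubiquitinase USP8, which returns Frizzled to the membrane, at 4.63, and TMEM79, which counteracts USP8, at 1.31. Their log2 fold changes were 0.0065, 0.05 and -0.03, and 0 of the 3 tested passed. The Dishevelled genes, the direct effectors, were all expressed, DVL1 at 32.4, DVL3 at 16.5 and DVL2 at 15.0 CPM per kilobase. DVL3 was at 101.5 ± 1.22 CPM in controls and 106.9 ± 3.06 under A20 siRNA (SD, n = 4 each), with ranges that did not overlap and a log2 fold change of 0.07 that did not pass (95% interval 0.02 to 0.13, adjusted p = 0.166, edgeR). DVL1 and DVL2 had log2 fold changes of 0.04 and 0.01, and the polarity gene VANGL1, at 6.56 CPM per kilobase, one of 0.0098. SMO, the Frizzled relative that serves Hedgehog signaling, never exceeded 1 count in a sample.

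CELSR2, a cadherin that partners FZD3 and FZD6 in planar cell polarity, is named after its values were seen, as the list member that passed in an alternative fit. It was at 46.0 ± 3.09 CPM in controls and 50.1 ± 1.44 under A20 siRNA (SD, n = 4 each), ranges overlapped, and the log2 fold change was 0.12 (95% interval 0.03 to 0.20, adjusted p = 0.156, edgeR). Without control replicate 1 it was 0.17 (adjusted p = 0.00599, edgeR), and without both control replicate 1 and A20 siRNA replicate 2 it was 0.19 (adjusted p = 0.00262, edgeR). The samples kept there had length trends (rho) of -0.16, -0.11 and -0.20 with control siRNA and 0.069, 0.14 and 0.18 with A20 siRNA. Length trend and siRNA thus cannot be told apart in that fit. Without control replicate 1 alone, only A20 siRNA replicate 2 broke this pattern. CELSR2 was 1 of 33 tested list members without control replicate 1, and 1 of 32 without both samples. Over all genes, 430 lower and 567 higher passed in the first of these fits and 483 and 614 in the second. The main analysis had 82 and 85. A call in these fits therefore does not set CELSR2 apart. With the length and GC correction on all samples, none of the list members passed, and none had passed on all samples without it. The correction was not run with samples left out, so its effect on the CELSR2 calls was not tested.

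Of 10 wnt feedback targets 8 were tested and 0 passed. The most abundant were MYC at 62.8, CCND1 at 48.7, LEF1 at 7.10 and TCF7 at 3.22 CPM per kilobase, with log2 fold changes of -0.0012, -0.01, 0.07 and 0.05. AXIN2 and NKD1, named after their values were seen because their ranges did not overlap between the groups, had estimates of opposite sign that did not pass. AXIN2, the negative-feedback scaffold, was at 3.19 ± 0.0823 CPM in controls and 2.75 ± 0.0996 under A20 siRNA (SD, n = 4 each; log2 fold change -0.22, adjusted p = 0.324, edgeR). NKD1, which binds Dishevelled, was at 15.4 ± 0.399 CPM in controls and 16.6 ± 0.897 under A20 siRNA (SD, n = 4 each; log2 fold change 0.12, adjusted p = 0.277, edgeR).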

How the data were processed

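The authors trimmed the reads with Trimmomatic, mapped them to GRCh38.p7 with STAR and deposited raw counts, the uniquely mapping reads per gene of a GENCODE annotation, for 57992 genes in each of 8 RKO samples. Libraries came from poly(A) RNA sequenced as single reads of 75 cycles. The GENCODE release and the strand setting are not given in the sources used here. Identifiers without version were matched to GENCODE release 44 on GRCh38 (56948 matched), which also gave lengths, so annotation is that of the later release. The members and lists were chosen with earlier results of these data known.

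Low genes were removed with filterByExpr (minimum count 10), and the rest were normalized by TMM and tested without covariates in edgeR 4.0.16 in R 4.3.3 (13412 genes; Benjamini-Hochberg, threshold 0.05). The F statistic gave the standard error and the 95% interval of each log2 fold change. The floor for a gene without counts was 3 counts in a library, 0.0875 to 0.141 CPM. No pair of replicates agreed within sampling noise (chi-square 1.31 to 3.69 per degree of freedom), so each was counted. The relation with depth used exact permutation over all pairings.

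The named genes were all Frizzled genes, list members that passed and up to 4 of each list by mean CPM, TNFAIP3, and the 3 genes most correlated with FZD6 and FZD1 (log2 CPM, prior count 2). Alternatives were RLE normalization, no filter, a stricter filter (10 counts or more in all samples), DESeq2 1.42.0, limma-voom 3.58.1, the replicate block, a loess correction (span 0.5) for exonic length and GC content with TMM repeated after it, with and without the block, samples left out, and other gene lengths. The pipeline was tested on simulated data. Protein sequences were not used here.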

Additional observations from a re-analysis of the deposited data

Results flagged for a closer look

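In 62 groups of 4 samples, a sample far from the others was found in 4, where chance gives about 3.1. No Frizzled gene was among them. For TNFAIP3, A20 siRNA replicate 2 lay below the rest (3.01 CPM against 3.40 to 3.47), and the gap was 0.847 of the group's range. For ZNRF3, control replicate 3 lay above the rest (22.5 CPM against 21.3 to 21.5), a gap of 0.835 of the range. For LGR4, A20 siRNA replicate 2 lay above the rest (13.9 CPM against 12.9 to 13.0), a gap of 0.903 of the range. For VANGL1, A20 siRNA replicate 1 lay below the rest (57.8 CPM against 60.1 to 60.2), a gap of 0.941 of the range.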

How the results depend on the processing

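The count of Frizzled genes that passed was 0 in the main analysis and in all 17 alternatives. FZD1, FZD7 and FZD8 kept the sign of their estimates in all of them, and the order of the 8 detected members by CPM per kilobase was the same under RLE normalization and the other lengths. RLE scales all genes of a library by the same factor, so it cannot change their order within a library. The longest and canonical transcripts alter the length only of FZD3 and FZD6 among the detected members, and that of FZD3 by too little to alter its place. TNFAIP3 was between -0.77 and -0.67 with each sample left out, passed in each of those fits, and received no adjusted p from DESeq2 (log2 fold change -0.72). Over all genes, the 82 lower and 85 higher calls became 310 and 314 when no filter was set, 212 and 262 with the replicate block, 138 and 114 with the length and GC correction, 225 and 224 with the block and the correction, and 483 and 614 without control replicate 1 and A20 siRNA replicate 2. Leaving out single samples gave 6 to 430 lower and 6 to 567 higher genes, most without control replicate 1 and fewest without A20 siRNA replicate 3. For these shifts the cause was not tested. The replicate numbers pair no samples by the labels, and deviations of same-numbered samples correlated by 0.084, 0.034, 0.035 and -0.0098. The replicate block changed no Frizzled call. Of the genes that act with Frizzled, 1 (CELSR2) passed without control replicate 1 and 1 without that sample and A20 siRNA replicate 2, and 0 to 1 with single samples left out.

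Among estimates that did not pass, FZD2 changed sign under RLE normalization (-0.0018), without a filter (-0.0028), with DESeq2 (-0.0074), with the replicate block (-0.010) and with the block and the correction (-0.0045). Without control replicate 1 and A20 siRNA replicate 2, estimates changed sign for FZD4 (-0.019), GPC4 (0.0058), ZNRF3 (-0.0093), LGR4 (-0.018), WNT2B (0.11), DVL2 (-0.0023) and VANGL1 (-0.0059). With the correction VANGL1 was at -0.00086 and MYC at 0.00057, and with the block and the correction at -0.00019 and 0.00085. With single samples left out, log2 fold changes ran from -0.11 to 0.079 for FZD2, -0.0072 to 0.058 for FZD3, -0.017 to 0.083 for FZD4, -0.0030 to 0.061 for FZD5 and -0.0045 to 0.022 for FZD6. They ran from -0.0042 to 0.039 for ZNRF3, -0.091 to 0.056 for WNT2B, -0.14 to 0.048 for WNT10A, -0.13 to 0.033 for WNT11, -0.012 to 0.069 for PORCN, -0.015 to 0.026 for GOPC, -0.0012 to 0.023 for DVL2, -0.0012 to 0.023 for VANGL1 and -0.017 to 0.0089 for MYC.

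The 95% interval of FZD8, on 58 to 108 reads per sample, reached 0.25 to each side on the log2 scale, against 0.050 for the abundant FZD6. Counting error and spread between samples were not separated in these widths.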
